A study of Cardamine hirsuta with 24 samples.

Results

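The genes described here are 148 genes of *Cardamine hirsuta* that stood lower in Dex than in Mock in each of the 3 replicate numbers of an induction experiment. The level of a gene was its CPM, the count scaled to a common library total over all gene rows, taken as log2(CPM + 1). Of 29458 genes in the files, 16330 were eligible, with a mean of at least 2 CPM over the libraries and a shift between Mock at 2 h and Mock at 8 h of under 1 on the log2 scale. For each replicate number the differences Dex minus Mock were averaged over the 4 times, genes were ordered by the value nearest 0 of the 3, and the lowest 150 were taken. Of the 4 identifiers that the rule leaves out, 2 were among them. The Dex minus Mock values given below therefore chose the genes. They are a description. Where counts of calls in the same contrasts are printed, nothing is read from them.

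Shoot apices of 12 day old seedlings were sequenced as poly(A) RNA, in pools of 20 seedlings. All plants were of the Oxford strain and all carried *RCOp::LhG4:GR; Op::ChCUC1:Venus*. In this construct the *RCO* promoter, active at the margin of developing leaves, drives an activator that dexamethasone lets into the nucleus, where it switches on a ChCUC1:Venus fusion. The Dex groups were given 10 µM dexamethasone and the Mock groups 0.1% DMSO, for 2, 4, 6 or 8 h, with 3 libraries in each of the 8 groups. Both treatments were given to plants with the transgene, so that a response to dexamethasone itself and a response to ChCUC1 cannot be told apart. The labels name no DMSO for the Dex groups, so a response to DMSO cannot be told apart from these. The apex was sequenced whole. Less RNA per cell and fewer cells of a type cannot be told apart either.

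CUC1 is a NAC transcription factor of organ boundaries, known in *Arabidopsis thaliana* for keeping neighbouring organs separate. In *A. thaliana*, the rapid response to wounding or pathogens runs through calcium signals and cascades of MAP kinases that act on WRKY, ERF and MYB transcription factors. These factors control enzymes of jasmonate, camalexin and lignin synthesis, transporters, and enzymes that conjugate small molecules. Genes of these families are among those named below. Roles named below are those of the *A. thaliana* counterparts unless stated otherwise.

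The files hold identifiers without names. The study's supplementary tables paired 128 of the 148 genes with a name or an *A. thaliana* counterpart, and 20 had none. For 107 of the 128 the pair stood only in tables of genes that the study called changed in these same libraries. A pair existed for 86.5% of the 148 genes and for 13.7% of eligible genes, so that counts of members in lists of named genes are not independent of the choice. The genes were neither rare nor particularly abundant, with a median of the mean level of 25.6 CPM (2.55 to 1527), against 20.6 CPM for eligible genes.

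The 24 libraries held 12850309 to 22956929 gene counts. *ChCUC1*, whose gene model takes up reads from the transgene as well as from the native gene, had 6.25 to 11.44 CPM (median 8.77) in the 12 Dex libraries, against 0.643 to 4.62 CPM (median 2.74) in the 12 Mock libraries. The treatments did not overlap, with a log2 fold change of 1.70 ± 0.19 (SE) averaged over the times and an adjusted p of 0.000545 (edgeR quasi-likelihood, Benjamini-Hochberg). Without replicate number 3 the fold change was 1.84 and the adjusted p 0.0669. Genes known from the shoot meristem, its organs and their boundaries were detected in all libraries, and the summed level of the 7 with a known counterpart was 59.5 to 115 CPM in Dex and 47.9 to 151 CPM in Mock. Among them, the counterpart of the meristem gene *KNAT1* (AT4G08150) had 14.5 to 29.5 CPM in Dex and 7.61 to 25.6 CPM in Mock. That of the organ growth gene *ANT* (AT4G37750) had 15.5 to 29.6 CPM in Dex and 16.4 to 29.0 CPM in Mock. *PLT3* ranged more widely, from 4.1 to 38.7 CPM in Dex and from 2.01 to 65 CPM in Mock. It was lower in Dex in all 3 replicate numbers (-0.11, -0.39 and -0.09). *KNAT1* and AT3G57130 were higher in all 3, and the others were mixed. Of the 7 genes 5 were eligible, and none was among the 148. As only 0.906% of all eligible genes were, nothing is read from this.

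How far the 148 genes were lowered depended strongly on the replicate number. The median Dex minus Mock was -2.28 in replicate number 1 (-4.91 to -0.48), -0.49 in number 2 (-0.97 to -0.41) and -0.82 in number 3 (-1.57 to -0.42), on the log2(CPM + 1) scale. Over eligible genes the medians were 0.32, -0.02 and 0.06. Replicate number 1 gave the strongest difference for 144 genes, and number 2 the weakest for 132. For most genes the value that the rule ranked was thus that of number 2. Leaving out number 2 kept 52 of the 148, while leaving out number 1 kept 141 and number 3 kept 121, and ordering by the mean of the 3 numbers kept 50.

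**Figure D1:**
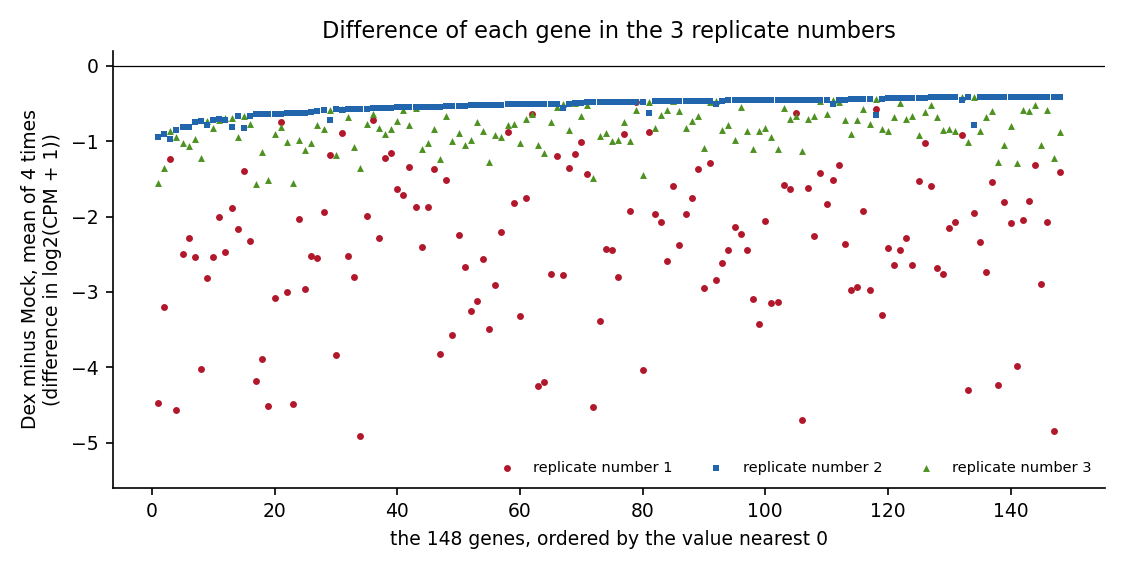
Dex minus Mock of each of the 148 genes, averaged over the 4 times (vertical axis, difference in log2(CPM + 1)), with genes ordered from left to right by the value nearest 0 of the 3 replicate numbers. Points of number 2 form a narrow band from -0.97 to -0.41, points of number 3 reach -1.57, and points of number 1 scatter down to -4.91.

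The limit of the rule cut through a continuous range. The last genes inside had rule values of -0.4085 (AT4G02940, a 2-oxoglutarate-dependent oxygenase), -0.4081 (AT5G14730) and -0.4077 (AT3G57750, a protein kinase). The first genes outside had -0.4075 (MYB112, a transcription factor), -0.4071 (AT1G64460) and -0.4067 (CYP81D8, a cytochrome P450). CYP81D8 was lower in replicate number 1 by far more than most members, at -6.45, with a mean level of 445.7 CPM.

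In replicate number 1 the Dex libraries stood lowest at all 4 times, and the Mock libraries stood above the mean of the other 2 by a median over the genes of 0.36, 0.91, 1.08 and 0.05 at 2, 4, 6 and 8 h. The median level of the 148 genes, as log2(CPM + 1), was 2.33 to 3.56 in the 4 Dex libraries numbered 1, against 3.63 to 4.56 in Dex libraries numbered 2 and 3.25 to 4.18 in those numbered 3. In Mock it was 4.86 to 5.89 in the libraries numbered 1, 4.60 to 4.94 in those numbered 2 and 4.28 to 5.08 in those numbered 3. For 127 of the 148 genes the lowest of all Dex libraries was one numbered 1, and for 129 genes the highest of all Mock libraries was one numbered 1. The highest Dex library was one numbered 2 for 128 genes. The genes summed to 0.229% to 0.471% of the counts of the Dex libraries numbered 1 and 1.49% to 2.42% of those of the Mock libraries numbered 1. In numbers 2 and 3 the shares were 0.387% to 1.08% in Dex and 1.05% to 1.46% in Mock.

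**Figure D2:**
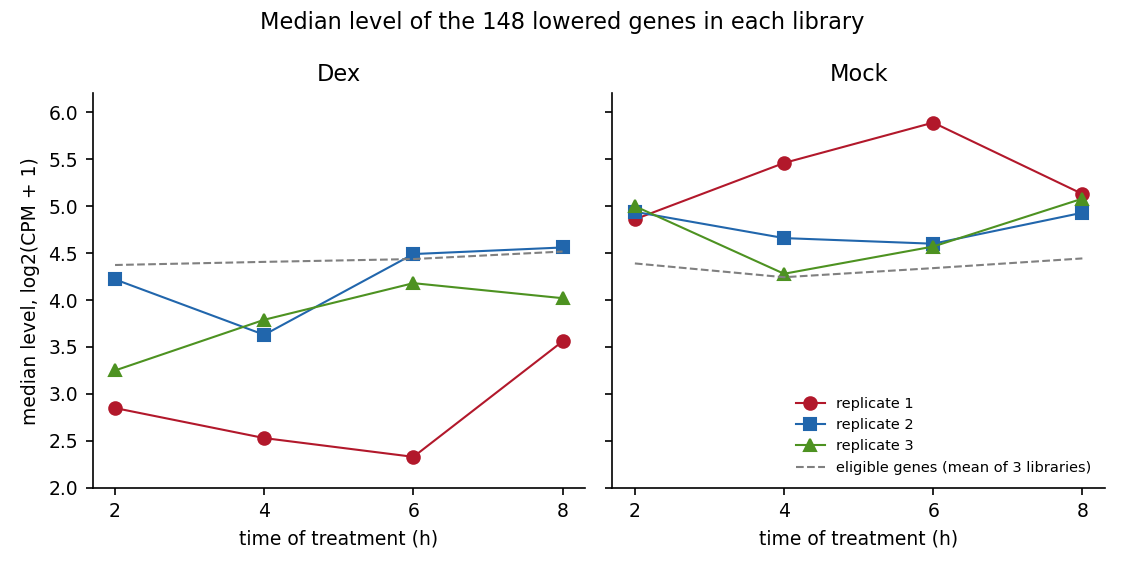
Median level of the 148 genes in each library (vertical axis, log2(CPM + 1)) by time of treatment (horizontal axis, h), with Dex in the left panel and Mock in the right, 1 line for each replicate number, and a dashed line for the median of eligible genes averaged over the 3 libraries of a group. The Dex libraries numbered 1 lie lowest at every time (2.33 to 3.56), and the Mock library numbered 1 at 6 h lies highest (5.89).

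Other groups of genes moved with the replicate number as well. The summed level of 24 heat shock genes, 3 of them members, differed between Dex and Mock by -3.61 on the log2 scale in replicate number 1, by -0.47 in number 2 and by -1.20 in number 3. The members *AtHsp90-1* and *HSP70* were the most abundant of the 24, at mean levels of 337 and 272 CPM, followed by *ATHSP101* at 86 CPM. This sum therefore rests in large part on genes that the rule chose by these values. For 8 genes of hypoxia, 1 of them a member, the values were -2.67, -0.48 and -0.93. Marker sums of other tissue, with no member, ran the other way in number 1, at 1.91, -0.32 and 0.57 for 8 root hair genes and at 0.95, 0.27 and 0.52 for 8 genes of photosystems and chlorophyll synthesis, which mark green leaf. The sum of 5 seed maturation genes differed by 1.0, 0.31 and 1.94, and so furthest in number 3. The root hair sum was 1.53 to 217 CPM in Dex and 1.23 to 51.3 CPM in Mock, and that of seed maturation 0.213 to 47.3 CPM in Dex and 0.462 to 9.33 CPM in Mock. The photosystem and chlorophyll sum was 475 to 6792 CPM in Dex and 359 to 4875 CPM in Mock. Most of this range lay within each replicate number, over the 4 times, as at 384 to 4410 CPM in the Mock libraries numbered 1. Of the 8 genes of this sum 1 was called higher and 1 lower in Dex on average. No gene of these lists was at 0 in all libraries. *ChCUC1* itself had 8.18 to 10.6 CPM in the Dex libraries numbered 1, and 0.643 to 2.05 CPM in the Mock libraries numbered 1 against 1.85 to 4.62 CPM in the other Mock libraries. The part of any of these in the values of the 148 genes was not tested.

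The rule set libraries of the same number and time against each other, and these are the pairs meant here. The labels do not say that a number marks plants grown together, so counts over pairs are only a description. Dex lay below Mock for most of the genes in all 12 pairs. The fewest genes were lower in the pair numbered 2 at 6 h, with 111 of 148, where 49.9% of eligible genes were also lower. The median difference was smallest there and in the pair numbered 3 at 6 h, at -0.14 and -0.18, and largest in the pair numbered 1 at 6 h, at -3.11. In every pair numbered 1 the median was between -3.11 and -1.55. In number 2 it was between -0.90 and -0.14 and in number 3 between -1.59 and -0.18. Each gene was lower in at least 9 of the 12 pairs and 74 were lower in all 12, as were 1.59% of eligible genes.

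**Figure D3:**
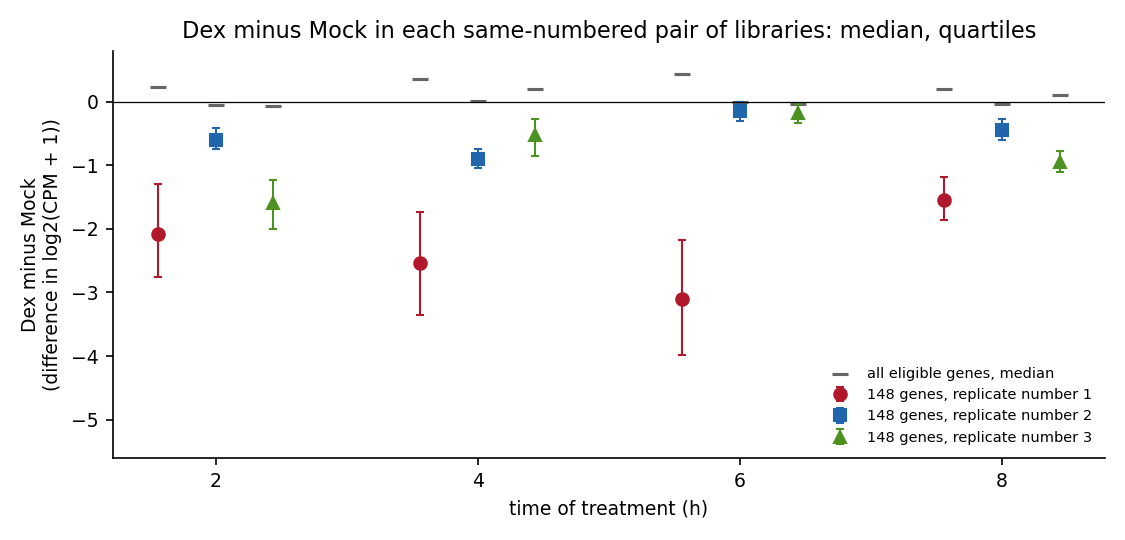
Dex minus Mock in each pair of libraries of the same number (vertical axis, difference in log2(CPM + 1)) by time of treatment (horizontal axis, h). Markers are medians over the 148 genes, bars their quartiles, and grey ticks medians over eligible genes. The pairs numbered 1 lie between -3.11 and -1.55, and at 6 h the pairs numbered 2 and 3 lie at -0.14 and -0.18, near 0.

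In the edgeR fit across all 21689 genes tested, 145 of the 148 genes were called lower in Dex on average over the 4 times, at an adjusted p under 0.05 and a fold over 1.5. Of all genes tested 8.89% were called lower. As the rule used this contrast, nothing is read from the count. The fitted log2 fold changes ran from -2.95 to -0.69 with a median of -1.36, against 0.04 over all genes tested. The 3 genes not called were the gibberellin oxidase ATGA2OX8 and 2 genes without a name. With replicate numbers 2 and 3 alone the median was -0.71 and 72 genes were called, of 149 called among all genes, and with numbers 1 and 2 alone the median was -1.56 and 0 genes were called, among the 148 and among all genes tested, while 139 of the 148 had an unadjusted p under 0.05.

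The single times entered the rule as well, so nothing is read from their calls either. None of the 148 genes was called at 2, 4, 6 or 8 h by edgeR, with 104, 129, 86 and 32 genes at an unadjusted p under 0.05, against 14%, 22.1%, 10.1% and 15.8% of all genes. The share of all genes called was 0.00461% at 2 h and 0% at 4, 6 and 8 h. DESeq2 called 13, 17, 0 and 2 of the 148 at the 4 times, all lower in Dex, and 0.539%, 0.618%, 0.00922% and 0.627% of all genes. The fitted medians were -1.52 at 2 h, -1.65 at 4 h, -1.26 at 6 h and -1.03 at 8 h. All 12 Dex libraries lay below all 12 Mock libraries in 2 of the 148 genes, CYP706A1 and AT3G02840, where 0.0245% of eligible genes did so.

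The genes are described by role below. The grouping was made by hand after their values had been seen and covers 87 of the 148 genes, with 41 further named genes and 20 without a name outside it. In all groups the median of replicate number 2 lay between -0.53 and -0.47 and that of number 1 between -3.15 and -1.83. The medians of number 3 lay between -0.95 and -0.73.

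**Figure D4:**
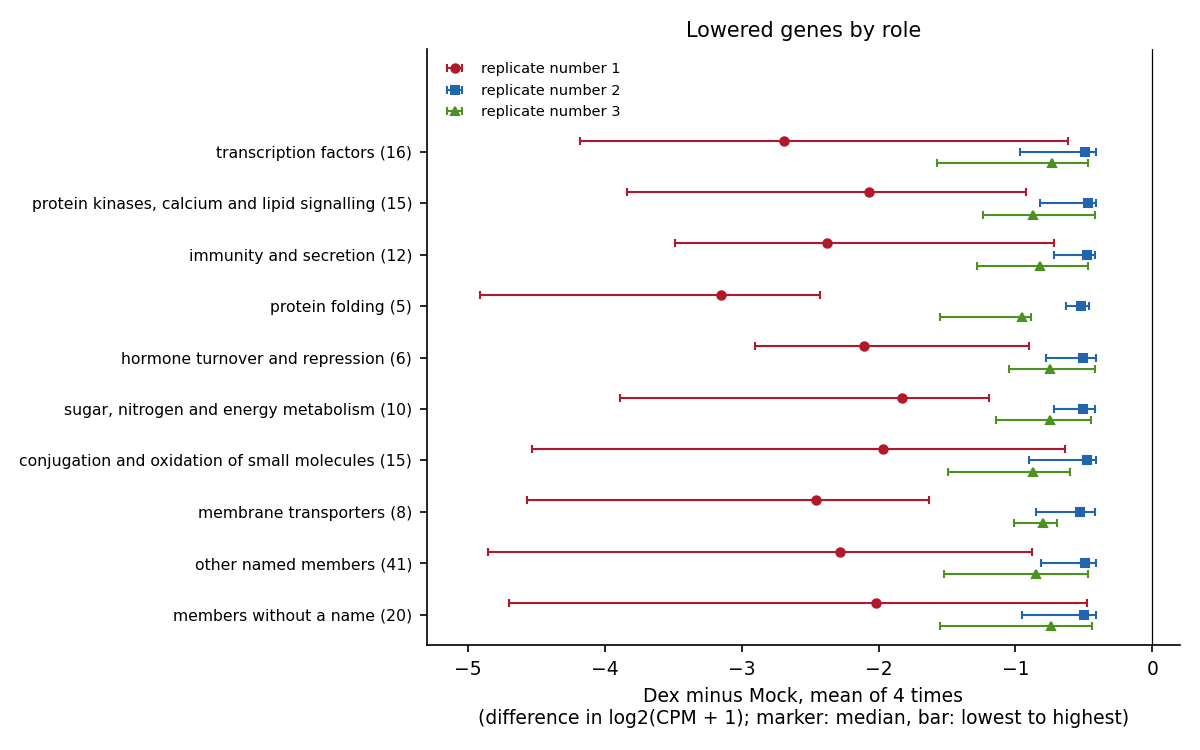
Dex minus Mock, averaged over the 4 times (horizontal axis, difference in log2(CPM + 1)), for the 148 genes by role, with the number of genes of each role in brackets. Markers are medians and bars reach from the lowest to the highest gene in each replicate number. Every bar lies below 0 by the choice of the genes, and the protein folding genes lie furthest down in number 1, with a median of -3.15.

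Transcription factors made up 16 of the 148 genes. *ATMYB15*, which activates genes of lignin and coumarin synthesis in immunity, had 1.92 to 7.18 CPM (median 4.42) in Dex and 4.32 to 22.4 CPM (median 9.42) in Mock. It was lower in 12 of 12 pairs and was among the most even of the genes, with -1.24, -0.97 and -0.87 in replicate numbers 1, 2 and 3. *WRKY33*, a regulator of camalexin synthesis, had 23.7 to 157.7 CPM (median 92.8) in Dex and 72.3 to 297.3 CPM (median 175.5) in Mock, and the ranges overlapped. *WRKY11*, a repressor of basal defence and the most abundant factor of the group, had 142.4 to 417.7 CPM (median 251.2) in Dex and 347.5 to 829.4 CPM (median 462.5) in Mock. *WRKY75*, known from phosphate starvation and senescence, differed by -4.18 in number 1 and by -0.64 and -1.57 in numbers 2 and 3. *WRKY28*, an activator of salicylic acid synthesis, differed by -1.99, -0.57 and -0.77.

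The ERF factors among them were *RRTF1*, *ABR1*, *CEJ1*, AT2G33710 and AT4G28140. *RRTF1* (ERF109), which links jasmonate to auxin synthesis, was rare, with 0 to 2.06 CPM (median 0.748) in Dex and 0.955 to 15.4 CPM (median 3.31) in Mock. Its 0 counts were in 1 Dex library, where 3 counts would be 0.233 CPM. *ABR1*, a repressor of abscisic acid responses, had 15.7 to 99.9 CPM (median 54.0) in Dex and 40.2 to 268.9 CPM (median 141.0) in Mock. *CEJ1*, a factor of the DREB group, differed by -2.94, -0.44 and -0.72 in replicate numbers 1, 2 and 3. The heat stress factor *HSF4* (HSFB1) and the zinc finger repressor *AZF2*, singled out after their values were seen, differed by -2.45, -0.48 and -1.0 and by -2.97, -0.44 and -0.77.

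Of the wider families, 26 WRKY genes had a pair and were tested, and 21 of them were called lower and 1 higher in Dex on average. Of these 26, 18 were eligible and 15 were lower in all 3 replicate numbers, 4 of them far enough to be members. Of 30 ERF and AP2 genes tested, 20 were called lower and 4 higher. Of 21 NAC genes tested, 18 were called lower, and 1 was a member, *ANAC001*. Of 28 MYB genes tested 14 were called lower and 6 higher. Most pairs come from genes the study called in these libraries, so that these counts are not independent evidence of a direction. The same holds for counts of calls in the lists of gene families and responses below.

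Kinases and other signalling proteins gave 15 genes, and 11 of them were lower in 12 of 12 pairs. *MAPKKK16* and *MAPKKK19* are MAP kinase kinase kinases. The first had 0.467 to 1.93 CPM (median 1.56) in Dex and 1.84 to 7.40 CPM (median 4.10) in Mock. The second, singled out after its values were seen, had 4.58 to 37.5 CPM (median 21.6) in Dex and 33.7 to 198.1 CPM (median 53.1) in Mock, and differed by -3.83 in replicate number 1 and by -0.54 and -1.24 in numbers 2 and 3. The receptor kinases AT1G61610 and *CRK39*, a cysteine-rich one, were lower by 3.08, 0.64 and 0.90 and by 1.87, 0.54 and 1.03. The proteins annotated as calmodulin binding, AT5G57010 and AT5G10660, differed by -2.07, -0.42 and -0.87 and by -1.37, -0.47 and -0.67. Of 29 calcium signalling genes tested 24 were called lower and 1 higher on average, and of 37 receptor kinases 26 lower and 5 higher.

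Genes of immunity and secretion numbered 12. AT3G07195, a protein of the RIN4 family, whose best known member is guarded by disease resistance proteins, had 9.07 to 49.4 CPM (median 17.6) in Dex and 21.6 to 192.2 CPM (median 45.1) in Mock. Further genes of this group were singled out after their values were seen. *DMR6*, a salicylic acid hydroxylase, had 12.5 to 50.9 CPM (median 23.9) in Dex and 27.4 to 106.6 CPM (median 57.3) in Mock. *SYP122*, a syntaxin of the plasma membrane, had 2.64 to 30.6 CPM (median 14.1) in Dex and 22.7 to 172.7 CPM (median 35.6) in Mock. AT3G02840, an armadillo repeat protein outside these groups and 1 of the 2 genes with separate ranges, had 0.149 to 4.47 CPM (median 1.92) in Dex and 4.47 to 48.2 CPM (median 6.73) in Mock. The highest Dex library and the lowest Mock library of AT3G02840 were both numbered 2 and harvested at 6 h, and their levels were equal to 3 digits.

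Protein folding gave 5 genes, with the widest distance between replicate number 1 and the others. *AtHsp90-1*, the stress-induced cytosolic HSP90, had 21.3 to 101.5 CPM in the Dex libraries numbered 1, and 73.2 to 336.6 CPM in the other Dex libraries. In Mock it had 382.5 to 1048 CPM in the libraries numbered 1 and 276.3 to 565.0 CPM in the others. The differences were -4.49, -0.63 and -1.55 in numbers 1, 2 and 3. *HSP70*, annotated as heat shock protein 70-4, had 42.9 to 333.0 CPM (median 150.4) in Dex and 174.2 to 794.5 CPM (median 329.8) in Mock. *ATHSP23.6-MITO*, a small heat shock protein of mitochondria, differed by -4.91 in number 1, the largest such value among the 148 genes, and by -0.57 and -1.36 in numbers 2 and 3. The disaggregase *CLPB4* and the co-chaperone *Hop3*, singled out after their values were seen, differed by -2.91, -0.52 and -0.92 and by -2.43, -0.48 and -0.89. All 24 heat shock genes tested, 3 of them members, were called lower on average with a median log2 fold change of -2.03. Of all genes tested 8.89% were called lower. A gene could enter the list only with a pair, and most pairs come from genes the study called in these libraries. The count is therefore not independent evidence of a direction. Of the 24 only 5 were eligible, as the others were too rare or shifted too far in Mock between 2 h and 8 h. Of these 5, 4 were lower in all 3 numbers.

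The group of hormone turnover and repression held 6 genes. *JAZ5*, a repressor of jasmonate signalling, had 3.73 to 15.3 CPM (median 7.27) in Dex and 6.504 to 42.7 CPM (median 17.02) in Mock. *LOX4*, a lipoxygenase of jasmonate synthesis, had 5.57 to 18.9 CPM (median 7.82) in Dex and 8.15 to 66.4 CPM (median 21.7) in Mock. *ILL6*, a hydrolase that takes apart the active jasmonate conjugate, had 8.37 to 37.4 CPM (median 17.3) in Dex and 28.0 to 85.3 CPM (median 45.9) in Mock. Of 13 jasmonate genes tested 7 were called lower on average. The gibberellin-inactivating oxidases *ATGA2OX8* and the gene listed as *ATGA2OX4* (gibberellin 2-oxidase 6), singled out after their values were seen, differed by -1.34, -0.55 and -0.79 and by -2.90, -0.41 and -1.05.

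Enzymes that conjugate or oxidise small molecules gave 15 genes. *CYP706A1*, a cytochrome P450 and the named gene with the lowest rule value, had 4.33 to 10.5 CPM in the Dex libraries numbered 1, 9.65 to 23.9 CPM in those numbered 2 and 12.8 to 14.8 CPM in those numbered 3. In Mock it had 45.8 to 103.7 CPM in number 1, 28.6 to 40.4 CPM in number 2 and 23.9 to 63.1 CPM in number 3. The highest Dex and the lowest Mock library were nearly level, at 23.85 and 23.89 CPM. *GST11*, a glutathione S-transferase, had 451.8 to 1349 CPM (median 878.4) in Dex and 1321 to 2530 CPM (median 1621) in Mock, and was lower in 12 of 12 pairs. AT3G11340, the glucosyltransferase UGT76B1 of salicylic and isoleucic acid, had 2.56 to 106.8 CPM (median 34.7) in Dex and 55.7 to 224.9 CPM (median 132.6) in Mock. AT1G21120, a methyltransferase of indole glucosinolates, had 56.2 to 256.1 CPM (median 159.3) in Dex and 231.4 to 422.8 CPM (median 317.8) in Mock. Of 31 genes listed as glucosyltransferases by name pattern and tested, 16 were called lower and 9 higher on average. Of 23 listed as glutathione S-transferases 17 were lower and 2 higher, and of 38 listed as cytochromes P450 12 lower and 8 higher.

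**Figure D5:**
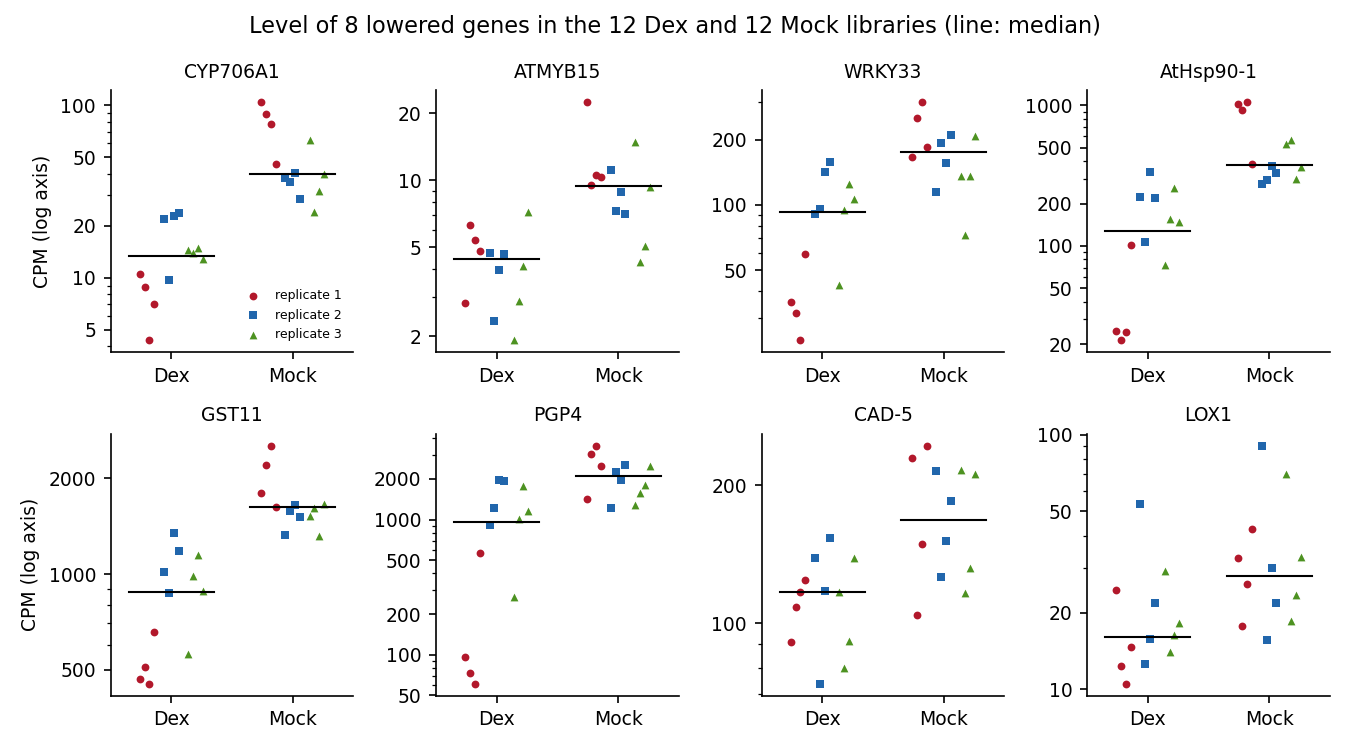
Level (vertical axis, CPM, log scale) of 8 of the 148 genes in the 12 Dex libraries, left in each panel, and the 12 Mock libraries, right, with a line at the median and the 4 times of each replicate number side by side. Dex and Mock ranges are separate in *CYP706A1*, and in *PGP4* and *AtHsp90-1* 3 of the 4 Dex libraries numbered 1 lie far below the rest.

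The transporters among the genes numbered 8. *PGP4* (ABCB4), an auxin transporter of roots in *A. thaliana*, was the most abundant of the 148 genes. It had 61.0 to 569.9 CPM in the Dex libraries numbered 1, 915.8 to 1956 CPM in those numbered 2 and 266.6 to 1771 CPM in those numbered 3, against 1211 to 3511 CPM in the 12 Mock libraries. Its differences were -4.30, -0.42 and -1.01. AT5G65980, annotated as an auxin efflux carrier, had 0.249 to 64.9 CPM (median 17.8) in Dex and 33.0 to 177.5 CPM (median 62.2) in Mock. AT1G53390 and *ATH1*, both ABC transporters, the second of the A family and not the homeobox gene of the same name, were lower by 1.76, 0.51 and 0.70 and by 2.36, 0.45 and 0.72. Of 88 membrane transporters tested 42 were called lower and 21 higher on average.

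Sugar, nitrogen and energy metabolism gave 10 genes, of which *ATRFNR1* and *HXK3* were named by the fixed rule and the others singled out after their values were seen. *ATRFNR1*, a ferredoxin-NADP reductase of the root type, had 78.3 to 396.2 CPM (median 225.9) in Dex and 311.5 to 609.7 CPM (median 445.9) in Mock. *GAD4*, a glutamate decarboxylase that makes GABA, had 18.7 to 282.7 CPM (median 100.9) in Dex and 160.3 to 846.2 CPM (median 300.0) in Mock. *GDH2*, a glutamate dehydrogenase, had 50.1 to 294.0 CPM (median 133.8) in Dex and 178.8 to 578.5 CPM (median 290.2) in Mock. The sugar carriers *MSS1* (STP13) and *SWEET2* differed by -1.20, -0.50 and -0.54 and by -2.53, -0.61 and -1.03 in replicate numbers 1, 2 and 3.

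Further genes named by the fixed rule were AT4G15610, uncharacterised, with 59.0 to 313.6 CPM (median 135.6) in Dex and 204.7 to 724.4 CPM (median 377.0) in Mock, and *SRO5*, a stress-induced relative of RCD1, with 1.10 to 21.0 CPM (median 9.57) in Dex and 12.4 to 82.9 CPM (median 22.9) in Mock. The remaining ones named among the 12 lowest by the rule were rare. AT5G51680 and AT3G44870 had medians of 2.18 and 1.59 CPM in Dex and 7.57 and 6.23 CPM in Mock. AT3G28600, an AAA-type ATPase, had 0 counts in the Dex libraries numbered 1 at 2, 4 and 6 h, where 3 counts would be 0.149 to 0.153 CPM, and 1.49 to 6.96 CPM in Mock. Of 30 peroxidases tested 9 were called lower and 10 higher on average, and of 33 ubiquitin ligases 24 lower and 5 higher. Lists of root hair, seed maturation, cell wall, phosphate starvation and photosynthesis genes held no member. They had 1, 1, 24, 7 and 2 eligible genes, and only 0.906% of all eligible genes were members. Nothing is read from this absence.

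A small set of the genes was lowered to about the same extent in all 3 replicate numbers. In 11 of the 148 the 3 values lay within 0.5 of each other on the log2 scale, while in 56 they spanned more than 2. *CAD-5*, a cinnamyl alcohol dehydrogenase of lignin synthesis, had -0.64, -0.51 and -0.64 in numbers 1, 2 and 3. AT1G64160, a dirigent-like protein, had -0.72, -0.56 and -0.64, and the VQ protein AT1G68450 had -0.74, -0.64 and -0.81, both singled out after their values were seen. *ANAC001* had -0.62, -0.46 and -0.66, and *ATMYB15*, AT5G42830, *ADL1B*, a dynamin-related protein, and the lipoxygenase *LOX1* were also among the 11. These genes were lowered less than most of the 148 in number 1, which follows from choosing them by a span within 0.5. In number 2 they were not alike. *ATMYB15* had -0.97 there, the lowest of the 148, and *ANAC001* had -0.46, against a median of -0.49.

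A further list held 422 genes whose DNA ChCUC1 bound in chromatin from plants and also in naked genomic DNA. Of these, 142 were eligible and 6 of the eligible ones (4.23%) were among the 148, against 0.906% of all eligible genes. The same 6 are on a shorter list of 28 selected targets, which was chosen on these libraries and so is not independent evidence. They are *CAD-5*, *CRK39*, the glucosyltransferases AT3G11340 and AT4G19460, and AT2G15760 and AT4G19370 without a known role. The differences in replicate numbers 1, 2 and 3 were -1.36, -0.50 and -0.85 for AT2G15760, -2.61, -0.47 and -0.85 for AT4G19370 and -1.83, -0.45 and -0.64 for AT4G19460. Of the 234 bound genes tested 38 were called lower and 25 higher on average, with a median log2 fold change of 0.05.

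Whether the Dex effect changed with time did not enter the ranking of the genes, which averaged over the times. The rule's limit on the Mock shift between 2 h and 8 h does bear on it, since those Mock levels are part of the comparison. The mean difference over the 3 numbers was deepest at 2 h for 67 genes, at 4 h for 60, at 6 h for 11 and at 8 h for 10, and weakest at 8 h for 100. The fitted difference between the effects at 8 h and at 2 h was above 0, that is a smaller lowering at 8 h, for 122 of the 148 genes. Its median was 0.47 on the log2 scale, against 0.06 for all genes tested, which did not all pass the limit on the Mock shift. The median moved with single libraries. It was 0.08 with 81 genes above 0 without Dex replicate 2 at 8 h and 0.16 with 99 genes without Dex replicate 1 at 2 h. Without Mock replicate 1 at 2 h it was 0.29, and without Dex replicate 1 at 8 h or Dex replicate 2 at 2 h it was 0.71 and 1.03. By edgeR 0 of the 148 genes were called, 0% of all genes were called, and 2 of the 148 had an unadjusted p under 0.05 (1.35%, against 4.32% of all genes). The count by DESeq2 was 0 as well. Over the 4 times together the test with 3 degrees of freedom also called 0, with 0% of all genes called. There 1 of the 148 (0.676%) had an unadjusted p below 0.05, against 2.16% of all genes, while the count called by DESeq2 was 0.

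*ATMYB15* had the smallest p of that comparison. Its mean level was 3.15, 3.85, 4.50 and 5.56 CPM in Dex at 2, 4, 6 and 8 h and 16.1, 7.05, 8.16 and 8.90 CPM in Mock. The difference of effects was 1.67 ± 0.57 (SE, edgeR), with an unadjusted p of 0.00831 and an adjusted p of 1. *CRK39* followed with 1.49 ± 0.68 and an adjusted p of 1, and mean levels of 2.24, 2.78, 3.23 and 2.90 CPM in Dex against 10.6, 9.21, 6.76 and 4.86 CPM in Mock. The kinase *RBK1* (1.10 ± 0.58) and the nucleoporin AT1G59660 (1.13 ± 0.61) had the same sign. *Prx37*, a class III peroxidase, had the opposite sign (-0.93 ± 0.51), with 70.7, 44.0, 44.1 and 41.7 CPM in Dex at the 4 times and 81.4, 89.9, 94.2 and 90.4 CPM in Mock. All of these had an adjusted p of 1 by edgeR.

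The rule kept only genes whose Mock level shifted little between 2 h and 8 h, which bears on how many of them could change between times, so that shares among eligible genes are given beside those among all genes tested. Between Mock at 4 h and at 2 h 2 genes rose and 4 fell by edgeR (4.05%), where 14.7% of all genes and 9.15% of eligible genes were called. Between Mock at 8 h and at 4 h 1 rose (0.676%, against 5.11% of all and 3.8% of eligible genes). In Dex 2 fell between 4 h and 2 h (1.35%, against 5.55% of all and 1.85% of eligible genes), and 0 were called between 8 h and 4 h by edgeR, where 2.21% of all and 1.04% of eligible genes were. In that last comparison 11 of the 148 (7.43%) had an unadjusted p under 0.05 by edgeR, against 14% of all genes. DESeq2 called 2 of the 148, both higher at 8 h, and 3.44% of all genes. The spread among the 3 libraries of a group was wider for the 148 genes than for most, with a median SD of 0.67 in Dex and 0.54 in Mock on the log2(CPM + 1) scale, against 0.23 in Dex and 0.25 in Mock for eligible genes.

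These counts depended on replicate number 1. With numbers 2 and 3 alone 9 of the 148 rose and 25 fell in Mock between 4 h and 2 h (23%, against 22.1% of all genes), and 10 rose between 8 h and 4 h (6.76%, against 8.32%). In Dex 5 rose and 10 fell between 4 h and 2 h (10.1%, against 7.85%) and 13 rose between 8 h and 4 h (8.78%, against 4.80%). The median over the 148 genes also changed sign in Mock. Between 4 h and 2 h it was 0.18 with all libraries and -0.17 without number 1, and between 8 h and 4 h it was -0.12 with all and 0.36 without. Mock replicate 1 at 4 h alone moved them as far, to -0.43 and 0.38 without it. Without number 2 or number 3 no member was called in any of the 4 comparisons, where few of all genes were called either. In the same order, the shares of all genes were 3.58%, 0.632%, 0.481% and 0.266% without number 2. Without number 3 they were 0.612%, 0.318%, 0.11% and 0.281%.

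*LOX1*, a lipoxygenase that makes 9-hydroperoxides, fell between 4 h and 2 h in both treatments. It averaged 35.8, 12.9, 14.2 and 18.2 CPM in Dex at 2, 4, 6 and 8 h and 64.4, 17.3, 26.4 and 32.5 CPM in Mock. The log2 fold change of 4 h against 2 h was -1.47 ± 0.34 in Dex (SE, adjusted p = 0.0143 by edgeR) and -1.71 ± 0.34 in Mock (adjusted p = 0.00238 by edgeR). The call in Mock held when any 1 of the 24 libraries was left out (-2.0 to -1.43), and that in Dex was lost without Dex replicate 2 at 2 h (-1.06), Dex replicate 2 at 4 h (-1.47) or Dex replicate 3 at 4 h (-1.56).

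*CAD-5* fell and rose again in Mock. It averaged 115.7, 87.4, 108.8 and 138.7 CPM in Dex at 2, 4, 6 and 8 h and 220.2, 115.6, 143.9 and 213.2 CPM in Mock. In Mock the change was -0.79 ± 0.18 for 4 h against 2 h (adjusted p = 0.00685 by edgeR) and 0.69 ± 0.18 for 8 h against 4 h (adjusted p = 0.0309 by edgeR). The first was called with any 1 of 24 libraries left out, and the second was lost without 5 of them, the 3 Mock libraries at 4 h (0.66, 0.69 and 0.72 without replicates 1, 2 and 3) and Mock replicates 1 and 3 at 8 h (0.57 and 0.70). In Dex it was not called by edgeR, at -0.43 ± 0.18 and 0.60 ± 0.18, with adjusted p of 0.216 and 0.0965. DESeq2 called the second, at 0.59 with an adjusted p of 0.0479, and *CAD-5* was not called in the test of the Dex effect over the 4 times.

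AT5G42830, an acyltransferase of the HXXXD type, rose in Mock by 0.77 ± 0.19 between 4 h and 2 h (adjusted p = 0.0107 by edgeR), and was not called without Mock replicate 2 at 2 h (0.72, adjusted p = 0.0548). It averaged 31.1, 49.1, 50.7 and 51.6 CPM in Dex at the 4 times and 51.4, 79.4, 83.9 and 87.9 CPM in Mock. *ADL1B* rose in Mock by 0.80 ± 0.26 (adjusted p = 0.0416 by edgeR) and *ANAC001* fell in Mock by 1.27 on the log2 scale with an SE of 0.43 (adjusted p = 0.0460 by edgeR), and these calls were lost in 8 and in 16 of the 24 cases with 1 library left out, with values of 0.63 to 0.90 and of -1.66 to -0.90. *HXK3*, a hexokinase of plastids, fell in Dex by 1.54 on the log2 scale with an SE of 0.42 (adjusted p = 0.0308 by edgeR), with mean levels of 15.2, 5.195, 6.51 and 8.26 CPM in Dex and 26.4, 11.2, 13.5 and 15.6 CPM in Mock. This call was lost when any 1 of the 6 Dex libraries at 2 h and 4 h was left out (-1.78 to -1.35 over all 24 cases). The fourth gene that fell in Mock has no name.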

How the data were processed

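The authors deposited 1 table of whole-number gene counts per library, not normalised. Per the labels, libraries were made with a directional poly(A) kit, the submitters' processing notes name STAR 2.4.2a, HTSeq 0.5.4p1 and DESeq. For build, annotation and strand setting the sources used here give nothing, so reads of overlapping or antisense genes and of near-identical copies may not be separated, and no coordinates or sequences are given. Reads without a gene (5.65% to 15.8%) and ambiguous reads (0.192% to 0.370%) stayed out of library sizes.

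Members were found by the rule stated in the results, with CPM from the sum of gene rows and a pseudocount of 1 CPM. The members and lists were chosen with earlier results of these data known. Lists were drawn by identifiers and name patterns, which can take in genes of other families. Names come from 4021 identifier pairs in the study's supplementary tables, since no identifier occurred in the reference annotation at hand. Tests were two-sided quasi-likelihood tests of edgeR 4.0.16 in R 4.3.3 (robust fit, TMM scaling, filterByExpr with a minimum count of 10) with 1 coefficient for each of the 8 groups, on 21689 genes, with Benjamini-Hochberg adjustment over all of them. The script was tested on simulated data only for the difference of effects between 8 h and 2 h. The simulated counts had a constant dispersion and no replicate effect, unlike these libraries. All 148 members passed the filter. The alternatives were RLE scaling, DESeq2 1.42.0, no filter, a replicate block and leaving out replicates or single libraries, and leaving replicate numbers or times out of the rule was added after seeing the data. Named were the 12 annotated members with the lowest rule value, the 8 most abundant, up to 4 of each list, all bound in both assays, the 5 of smallest p in the difference of effects, up to 5 called in each time course, and those next to the limit, which gave 58 genes. P-values measure the spread between the libraries of a group, which may be technical in part.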

Additional observations from a re-analysis of the deposited data

How the results depend on the processing

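Other scalings changed part of the choice. TMM-scaled library sizes shared 134 of the 148 genes, a pseudocount of 0.5 shared 137 and a minimum of 5 CPM shared 125. The mean of the 3 replicate numbers shared 50, no limit on the Mock shift 81, and the rule without 4 h 96, and leaving out 1 replicate number shared 52 to 141.

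The count called lower on average was 143 to 148 under RLE scaling, DESeq2, no filter and the replicate block, 139 to 148 with 1 library left out, and 72, 145 and 0 without replicate numbers 1, 2 and 3, a leave-one-out range of 0 to 148. Of all genes, 11.6% to 14.4% were called in either direction under the former settings and 9.58% to 15.9% with 1 library left out. Without replicate numbers 1, 2 and 3 these shares were 0.687%, 22.0% and 0%. With DESeq2 26 genes were called at 1 or more single times, where 0.00922% to 0.627% of all genes were called at each time. In Dex it called 4 between 4 h and 2 h (2.7%, against 6.61% of all genes). Between 8 h and 4 h in Dex it called 2 (1.35%, against 3.44%). With the replicate block, 148 were called on average, where 13.0% of all genes were, and 1 between 8 h and 4 h in Dex, where 2.28% were. The correlation of same-numbered deviations ran from -0.65 to 0.13 and exceeded 0.1 in 1 of 12 pairs. It cannot say whether libraries of the same number were grown or processed together, which the labels do not say either. With 1 library left out, counts were 0 to 9 for single times, 3 to 9 and 0 to 3 for Mock (4 h against 2 h, 8 h against 4 h), 0 to 4 and 0 to 1 for Dex, and 0 for both differences of effects. The shares of all genes were 7.1% to 19.1% and 2.05% to 7.08% for Mock, and 2.0% to 6.86% and 1.07% to 3.01% for Dex. Leaving out a whole replicate number as well widened the ranges to 0 to 34 and 0 to 10 for Mock and 0 to 15 and 0 to 13 for Dex, the highest each without number 1. There 22.1%, 8.32%, 7.85% and 4.8% of all genes were called in the same comparisons. *ChCUC1* ranged from 1.41 to 1.94. Of 71 values of named genes none changed sign under any alternative. Of these, 58 were average Dex against Mock differences, by which the genes were chosen, so nothing is read from their sign. Calls were lost for 0 under RLE scaling and DESeq2, 2 without the filter, 1 with the block, and 29, 8 and 66 without replicate numbers 1, 2 and 3. With 2 libraries a group these fits have less precision. Of the calls on average, those of *PGP4*, AT5G14730 and *ATHSP23.6-MITO* were lost when 1 of several libraries was left out. The causes were not tested.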
